A study of Homo sapiens with 4 samples.

Results

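ITGB4 encodes integrin beta4, the chain that makes a hemidesmosome receptor out of integrin alpha6. It was examined in A375 melanoma cells together with 7 genes of the same adhesion structure, 8 of the 62649 genes in the count files. The genes were taken by name: the integrin chains ITGB4 and ITGA6, the laminin-332 chains LAMA3 and LAMB3, the hemidesmosome proteins COL17A1, PLEC and DST, and the tetraspanin CD151. The set was chosen by the lower ITGB4 counts in resistant than in control libraries, so the values of ITGB4 between the groups are a description and carry no test. All 8 genes passed the filter on low counts, which left 24961 genes in the fit.

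Of the 4 libraries, 2 came from A375 cells that had become resistant to vemurafenib, which blocks mutant BRAF kinase, under a concentration raised weekly from 0.1 to 6.4 µM. The other 2, the controls, came from parental A375 cells grown in the same medium. A375 is a human melanoma line with an activating BRAF mutation, which all 4 libraries therefore share. The shared protocol describes sorafenib, pioglitazone and DMSO vehicle treatments and a harvest after drug treatment, but the sample titles name none of these, and whether vemurafenib was present at harvest is not stated. The labels also do not say whether the resistant cells were a pool or 1 clone. The design text calls the replicates biological but names no separate cultures. The p-values therefore measure the spread between libraries only, and that spread may be technical.

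A hemidesmosome fastens an epithelial cell to its basement membrane. Integrin alpha6 beta4 binds laminin-332 outside the cell, and inside it the long tail of beta4 binds plectin, which holds keratin filaments. Collagen XVII and the DST isoform BP230 complete the stable form of the junction in skin, and CD151 sits beside laminin-binding integrins in the membrane. Alpha6 can also pair with beta1, whereas beta4 is known to pair with alpha6 alone. Pigment cells have no stable hemidesmosomes, and in carcinoma cells alpha6 beta4 is best known as a signalling receptor outside these junctions.

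Counts assigned to genes totalled 68022689 and 85197524 in the resistant libraries, against 72290468 and 87178097 in the controls. Every count of control replicate 1 was even, and halving that library changed no call among the 8 genes. SOX10, a transcription factor gene of the melanocyte lineage, had 969 and 864 CPM (TMM-normalised counts, scaled to library size) in resistant cells and 704 and 1149 CPM in controls, while the pigment genes PMEL, MLANA and TYR stayed at or below 2.34 CPM in each library. The summed level of 9 keratinocyte markers was 62.9 and 94.1 CPM in resistant cells, against 64.2 and 69.4 CPM in controls, most of it from KRT10. Within that list KRT14 fell (described with the keratins), and SFN, which encodes stratifin, had 0.872 and 1.11 CPM in resistant cells and 10.4 and 2.40 CPM in controls without passing (log2 -2.68 ± 0.63, edgeR adjusted p = 0.104). The part of these cells or genes in the ITGB4 values was not tested. The keratinocyte genes KRT1, TP63, DSG3 and IVL had 0 counts in control replicate 1 and at most 0.381 CPM in any library. Of the other marker lists, 7 fibroblast genes summed to 13.3 and 11.7 CPM in resistant cells and 15.4 and 12.1 CPM in controls. Among these LUM had 0.366 and 0.145 CPM in resistant cells and 2.18 and 1.43 CPM in controls without passing (log2 -2.83 ± 0.53, edgeR adjusted p = 0.0569). The 7 melanoma and melanocyte genes, SOX10 included, summed to 1417 and 1283 CPM in resistant cells and 1065 and 1631 CPM in controls, most of it from SOX10 and ERBB3. Within that list MITF had 12.3 and 23.4 CPM in resistant cells and 42.2 and 22.8 CPM in controls. Its groups overlapped and it did not pass (log2 -0.86 ± 0.37, edgeR adjusted p = 0.371). The summed levels of 4 leukocyte genes were 1.72 and 1.17 CPM in resistant cells and 0.782 and 1.88 CPM in controls, with CD3E at 0 in 3 libraries. Each of the 4 sums overlapped between the groups.

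ITGB4 (ENSG00000132470.14, GRCh38 chromosome 17, 75721328 to 75757818, plus strand) had 114 and 256 CPM in the resistant libraries, against 1482 and 1422 CPM in the controls. Both resistant libraries lay far below both controls, and they differed 2.25-fold from each other where the controls differed 1.04-fold. The means were 185 ± 100 CPM in resistant cells and 1452 ± 42.8 CPM in controls (SD, n = 2 each). The fitted log2 fold change, resistant over control, was -2.97 ± 0.36 (SE), or 7.85-fold lower. It was -3.67 without resistant replicate 2, whose ITGB4 level was the higher of the pair, and -2.50 without resistant replicate 1. No exon base of ITGB4 is shared with another annotated gene, so counting without strand mixes no annotated gene into it. In bulk RNA, fewer cells with ITGB4 transcripts and less transcript per cell cannot be told apart.

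The transcript was abundant in parental cells. Per length, ITGB4 had 64.3 and 134 TPM (abundance per union exon length, scaled to the library) in resistant cells and 776 and 769 TPM in controls. Among all genes by mean TPM it ranked 1466th in resistant cells and 127th in controls.

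Over all 24961 genes, the edgeR quasi-likelihood test with Benjamini-Hochberg adjustment called 1.09% at an adjusted p below 0.05, with 0.577% higher and 0.513% lower. Of the 8 genes, 1 was called lower, ITGB4 itself, and none of the others was called by edgeR or by DESeq2. DESeq2 called 4.86% of the 24915 genes to which it gave an adjusted p, with 2.32% higher and 2.53% lower. At an unadjusted p below 0.05 edgeR adds LAMB3, where 13.5% of all tested genes lie, 6.14% higher and 7.32% lower. Nothing is read from the call of ITGB4, since its contrast chose the set. The median log2 fold change of the 7 genes without ITGB4 was -0.04, against 0.01 over all genes tested. The resistant libraries lay wholly below the controls for ITGB4, COL17A1 and DST, and wholly above them for LAMA3 and LAMB3. Such separation was common, at 22.2% of tested genes for lower, 22.4% for higher and 44.6% in either direction.

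**Figure D1:**
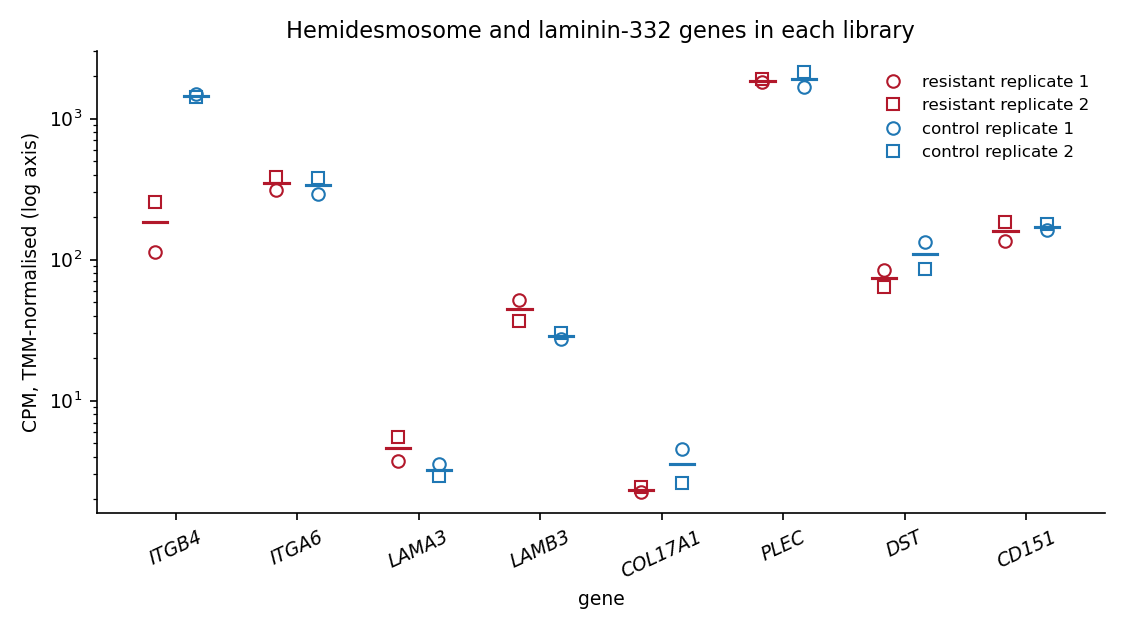
Level of each gene in each library, in TMM-normalised CPM on a log axis, with open symbols for libraries (circle, replicate 1; square, replicate 2) and a bar for the group mean. ITGB4 is the gene whose groups stand far apart (114 and 256 CPM in resistant cells, 1482 and 1422 CPM in controls), while ITGA6, PLEC and CD151 overlap between groups.

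ITGA6 (chromosome 2), which encodes the alpha6 chain, had 312 and 388 CPM in resistant cells, against 294 and 377 CPM in controls. The groups overlapped (log2 fold change 0.06 ± 0.20; edgeR adjusted p = 0.947). Its sign turned negative without control replicate 1 (-0.10) and without resistant replicate 2 (-0.11). Of its exon bases, 5.3% lie opposite antisense genes, and counting by default left out reads that overlap several genes. ITGB1, the other beta chain that alpha6 can pair with, had 312 and 299 CPM in resistant cells and 297 and 403 CPM in controls (edgeR adjusted p = 0.755).

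The ratio of ITGB4 to ITGA6 in TPM was 0.361 and 0.651 in resistant cells, against 4.98 and 3.72 in controls. In parental cells the beta4 transcript outnumbered that of its only known partner, and in both resistant libraries it was the scarcer of the pair. The ratio of ITGB4 to ITGB1 was 0.786 and 1.84 in resistant cells and 10.7 and 7.59 in controls. The ratio of ITGA6 to ITGB1 was 2.18 and 2.83 in resistant cells and 2.16 and 2.04 in controls, a mean log2 difference of 0.24. ITGA6 relative to ITGA3, the other main laminin-binding alpha chain of these cells, stood at 0.691 and 0.503 in resistant cells and 0.604 and 0.541 in controls. An exact two-sided permutation test of 2 against 2 libraries cannot go below p = 0.333, so the ratios carry no p. TPM ratios depend on the union exon length, which is the same in each library.

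**Figure D2:**
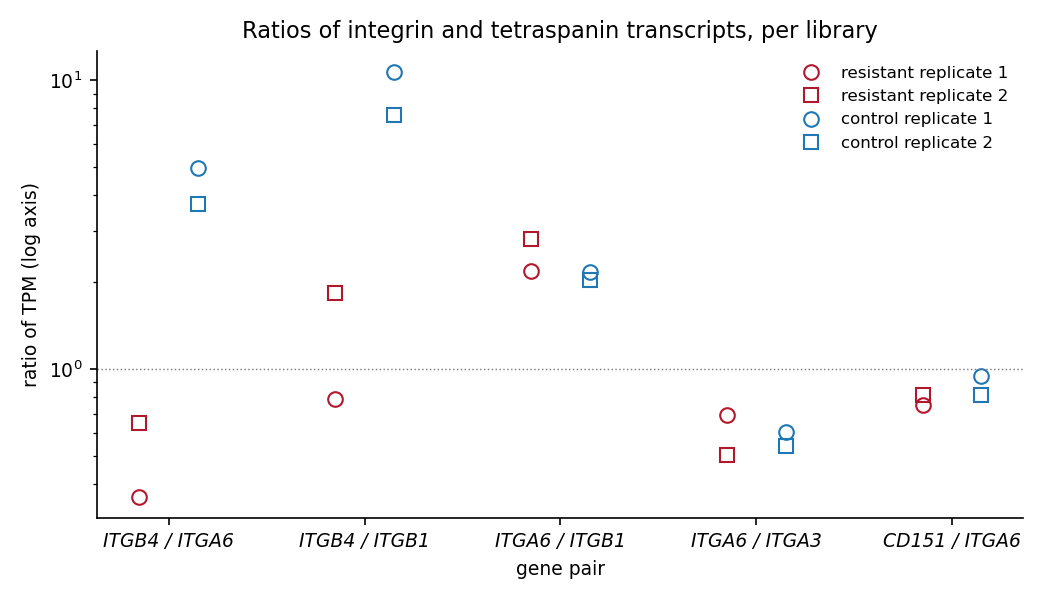
Ratios of TPM between integrin and tetraspanin transcripts in each library, on a log axis, with the dotted line at equal levels. The ratio of ITGB4 to ITGA6 lies below 1 in the resistant libraries (0.361 and 0.651) and above 1 in the controls (4.98 and 3.72), and the ratios without ITGB4 lie between 0.503 and 2.83 in all 4 libraries.

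Laminin-332 is the extracellular ligand, and neither of its chains LAMA3 and LAMB3 was called. LAMB3 (chromosome 1), which encodes the beta3 chain, had 51.9 and 37.0 CPM in resistant cells, against 27.2 and 30.0 CPM in controls. Both resistant libraries were above both controls, but LAMB3 missed the threshold (log2 0.64 ± 0.21; edgeR adjusted p = 0.229). LAMA3 (chromosome 18), the alpha3 chain gene, was low, with 3.74 and 5.52 CPM in resistant cells and 3.58 and 2.91 CPM in controls. On 252 to 456 counts a library, the difference was 0.51 ± 0.31 in log2 (edgeR adjusted p = 0.541).

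Per length, the LAMB3 and LAMA3 transcripts were far from equal. LAMB3 stood 43.2 and 20.9 times above LAMA3 in TPM in resistant cells, and 23.7 and 32.2 times above it in controls. LAMA3 was the scarcer of the pair in all 4 libraries, at 0.985 and 1.35 TPM in resistant cells and 0.874 and 0.734 TPM in controls. The LAMA3 gene has a long and a short form from separate starts, and the union length includes both, so its TPM understates a short form used alone.

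The bases before 1 annotated start of each laminin gene are shown because these 2 genes were the members with higher values in both resistant libraries. Of all tested genes 22.4% lay wholly higher, and neither laminin gene was called, so the choice is a description. They cover 250 bases upstream of the start, from RefSeq on GRCh38.p14, with matches to the AP-1 motif TGANTCA in capitals; the motif reads the same on the other strand apart from its middle base. AP-1 is the dimer of FOS and JUN family proteins. The LAMA3 window lies at chr18:23872770-23873019 on the plus strand, at a start inside the gene. The LAMB3 window lies at chr1:209651375-209651624 on the minus strand, the 1 of 3 LAMB3 windows with a match.
LAMA3: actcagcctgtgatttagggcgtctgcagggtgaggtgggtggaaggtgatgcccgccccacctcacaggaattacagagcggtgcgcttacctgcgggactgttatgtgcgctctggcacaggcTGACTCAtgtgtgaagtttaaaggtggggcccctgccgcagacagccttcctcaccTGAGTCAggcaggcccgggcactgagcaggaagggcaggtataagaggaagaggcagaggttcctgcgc
LAMB3: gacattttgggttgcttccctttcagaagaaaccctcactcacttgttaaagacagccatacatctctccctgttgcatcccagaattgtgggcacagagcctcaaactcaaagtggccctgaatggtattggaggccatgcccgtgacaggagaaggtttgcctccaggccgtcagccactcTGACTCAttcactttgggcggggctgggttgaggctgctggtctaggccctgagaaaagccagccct

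The LAMA3 window holds 2 matches, beginning 125 and 69 bases before the start, and the LAMB3 window holds 1, beginning 67 bases before it. A GC box (GGGCGG) and an E-box (CACCTG) were searched on both strands: the LAMA3 window holds 1 of each and the LAMB3 window 1 GC box. The E-box of LAMA3 shares 2 bases with an AP-1 match, and no GC box shares any. The AP-1 motif is present in 6.57% of 35116 windows of this length, the GC box in 42.6% and the E-box in 17.5%. The 10 windows of 5 members (ITGA6, LAMA3, LAMB3, COL17A1 and DST) held the AP-1 motif in these 2 alone. ITGB4, PLEC and CD151 had no entry. A match is a description of letters, not a site in use. Among AP-1 genes, FOSL1 had 728 and 1277 CPM in resistant cells and 696 and 1111 CPM in controls, JUN 248 and 233 CPM in resistant cells against 373 and 258 CPM in controls, and JUNB 504 and 343 CPM in resistant cells against 183 and 374 CPM in controls, none past the edgeR threshold (adjusted p = 0.903, 0.496 and 0.510). The log2 fold change of JUNB was 1.21 without control replicate 2 and 0.18 without control replicate 1, against 0.61 with all 4 libraries.

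Of the cytoplasmic plaque genes, PLEC (chromosome 8), the gene of plectin, had 1804 and 1905 CPM in resistant cells, against 1661 and 2146 CPM in controls. The resistant libraries fell between the controls, at -0.04 ± 0.19 in log2 (edgeR adjusted p = 0.965), and the sign turned positive without control replicate 2 (0.16) and without resistant replicate 1 (0.01). PLEC in TPM was 6.30 and 2.96 times ITGB4 in resistant cells and 0.446 and 0.601 times in controls. Plectin also links other filaments and other adhesions, so its transcript is not particular to hemidesmosomes.

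DST (chromosome 6) encodes several plakin isoforms, of which the epithelial BP230 belongs to hemidesmosomes. It had 84.5 and 64.2 CPM in resistant cells, against 133 and 86.3 CPM in controls. The resistant libraries were lower, but the upper one lay just under the lower control, and DST missed the threshold (log2 -0.56 ± 0.25; edgeR adjusted p = 0.381). Without control replicate 2 it passed (log2 -0.84, adjusted p = 0.0304), and without control replicate 1 it was -0.21 (adjusted p = 0.975). Gene counts do not separate the isoforms. COL17A1 (chromosome 10), the gene of the transmembrane collagen XVII, was near the bottom of expression, at 2.26 and 2.43 CPM in resistant cells and 4.58 and 2.59 CPM in controls (log2 -0.61 ± 0.35, edgeR adjusted p = 0.522). Control replicate 1 alone stood well above the rest, and the log2 fold change was -0.14 without it.

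CD151 (chromosome 11), the tetraspanin gene, had 136 and 184 CPM in resistant cells, against 162 and 178 CPM in controls. The groups overlapped (log2 -0.09 ± 0.20, edgeR adjusted p = 0.912; 0.12 without resistant replicate 1), and its ratio to ITGA6 in TPM was 0.750 and 0.811 in resistant cells and 0.942 and 0.810 in controls. Of its exon bases 6.6% lie opposite POLR2L.

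The order of the 8 transcripts per length changed at the top. In resistant cells it ran PLEC, ITGA6, CD151, ITGB4, LAMB3, DST, COL17A1 and LAMA3, and in controls ITGB4, PLEC, ITGA6, CD151, LAMB3, DST, COL17A1 and LAMA3. In resistant cells the ranges of CD151 and ITGB4 touched and those of COL17A1 and LAMA3 overlapped, so neither pair can be ranked. In controls the ranges of ITGA6 and CD151 overlapped and the other neighbours lay apart. The order also depends on the union exon length, 48142 bases for DST and 14488 for LAMA3. Each spans several forms of its gene, so DST and LAMA3 may be placed too low in both groups. PLEC averaged 402 ± 4.71 TPM in resistant cells and 404 ± 81.8 TPM in controls, and ITGB4 averaged 99.4 ± 49.6 TPM in resistant cells and 772 ± 5.12 TPM in controls (SD, n = 2 each).

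The genes around ITGB4 on the chromosome were set beside it. Within 1 Mb of ITGB4, 94 other genes were tested, with a median log2 fold change of -0.03, and 1 passed, at a lower level. Over the 52 of them whose higher group mean reached 5 CPM, the values ran from -2.25 to 0.99, and none was as low as ITGB4. The 1 neighbour that passed was UNC13D, which encodes the granule-priming protein Munc13-4 and begins 69.4 kb beyond the end of ITGB4. UNC13D had 5.09 and 6.92 CPM in resistant cells, against 40.0 and 17.3 CPM in controls (log2 -2.25 ± 0.39, edgeR adjusted p = 0.0478). Without control replicate 1 the value was -1.53, and UNC13D missed the threshold without resistant replicate 1 (adjusted p = 0.0746) and without resistant replicate 2 (0.182). The genes between and around them were close to level: SAP30BP, 13.3 kb before ITGB4, had a log2 fold change of -0.01, and H3-3B, UNK and WBP2 had -0.18, -0.23 and -0.28. GALK1, the galactokinase gene, whose body overlaps the end of ITGB4 with no shared exon base, had -0.42.

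**Figure D3:**
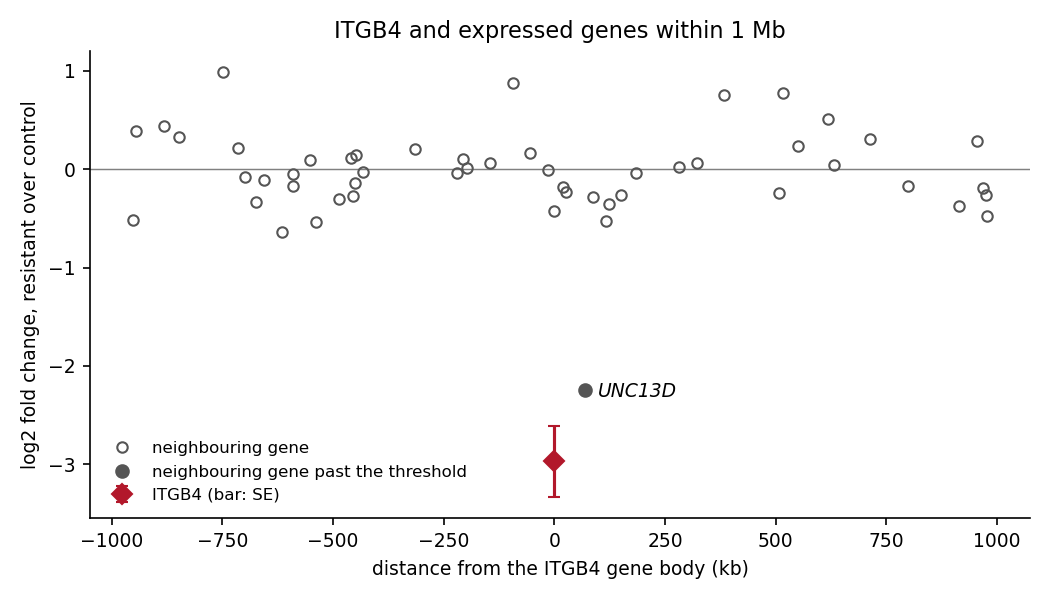
Log2 fold change, resistant over control, of ITGB4 (diamond, with SE) and of the 52 genes with at least 5 CPM within 1 Mb, by distance in kb from the ITGB4 gene body. ITGB4 at -2.97 and UNC13D at -2.25 lie below the other points, which run from -0.64 to 0.99.

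Around the other 7 genes no neighbour within 1 Mb passed. The median log2 fold change of neighbours with at least 5 CPM was 0.08 around ITGA6 (12 genes), -0.03 around LAMA3 (10), -0.04 around PLEC (60), 0.04 around CD151 (39), 0.10 around COL17A1 (16) and 0.03 around DST (6). Around LAMB3 it was -0.52 over 5 genes, while LAMB3 itself was at 0.64, above all of them.

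Across 9 lists of related genes outside the 8 (104 genes, 103 tested), 1 rose and 4 fell in edgeR, or 4.85% against the background of 1.09%. The lists were drawn up with earlier results of these data known, so the share is a description. Between settings the count moved with that over all genes, which was 272 in the main fit. It was 19 of 1210 in DESeq2, 25 of 1866 with no filter on low counts and 1 of 64 with a replicate block. With 1 library left out both counts ranged widely.

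Among 10 other laminin chains, 1 rose, LAMC3, the gene of the gamma3 chain. In this list 3 genes had an unadjusted p below 0.05 and DESeq2 called 2 higher, against 13.5% and 4.86% of all genes. LAMC3 had 2.60 and 3.24 CPM in resistant cells, against 0.335 and 0.600 CPM in controls (log2 2.63 ± 0.40, edgeR adjusted p = 0.0360; 0.179 without resistant replicate 2), a low level in every library. The chains that these cells express most did not pass. LAMC1, of most other laminins, had 1193 and 1000 CPM in resistant cells and 1113 and 1430 CPM in controls. LAMA5 had 1312 and 1299 CPM in resistant cells and 1420 and 1766 CPM in controls, and LAMB1 807 and 972 CPM in resistant cells against 1423 and 1096 CPM in controls. The list median was -0.25.

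Of 8 other laminin receptors, 1 fell and none rose in edgeR. With 3 at an unadjusted p below 0.05, DESeq2 called 1 higher and 1 lower, against 13.5% and 4.86% of all genes by these criteria. The syndecan gene SDC2 had 65.7 and 45.9 CPM in resistant cells and 18.5 and 25.8 CPM in controls. SDC2 missed the threshold (log2 1.33 ± 0.25, edgeR adjusted p = 0.0563). DAG1, which encodes dystroglycan, had 148 and 116 CPM in resistant cells, against 283 and 284 CPM in controls (log2 -1.11 ± 0.19, edgeR adjusted p = 0.0444; 0.235 without resistant replicate 2). Of 79 tested genes within 1 Mb of DAG1 on chromosome 3, 1 was called lower, and the 48 of at least 5 CPM had a median log2 fold change of -0.66 (from -2.48 to 0.30), against -0.04 over the 52 around ITGB4. ITGA3, the alpha3 integrin gene, had 662 and 1133 CPM in resistant cells and 715 and 1022 CPM in controls (log2 0.05, edgeR adjusted p = 0.971), and the syndecan gene SDC4 had 355 and 267 CPM in resistant cells against 216 and 369 CPM in controls. The list median was -0.07.

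Among 15 other plakin and intermediate filament genes 2 fell and none rose in edgeR. Of the 15, 7 had an unadjusted p below 0.05 in edgeR, against 13.5% of all genes, and DSP alone of the 7 was higher. DESeq2 called 1 higher and 3 lower, against 4.86% of all genes. The plakin gene DSP was higher at 21.0 and 18.9 CPM in resistant cells, against 9.39 and 9.28 CPM in controls. DSP missed the threshold (log2 1.09 ± 0.20, edgeR adjusted p = 0.0521). The keratin genes KRT7, KRT15 and KRT17 lay lower in both resistant libraries without passing. Their log2 fold changes were -1.35 ± 0.45, -1.28 ± 0.27 and -2.42 ± 0.70 (edgeR adjusted p = 0.239, 0.0787 and 0.166), with KRT17 at most 0.531 CPM. NES, the gene of the filament protein nestin, had 60.7 and 61.9 CPM in resistant cells, against 191 and 239 CPM in controls (log2 -1.81 ± 0.18, edgeR adjusted p = 0.0121). NES missed the threshold without resistant replicate 2 (0.0940). KRT14, a keratin of basal epidermal cells, had 22 and 26 counts in resistant cells, against 116 and 180 counts in controls (log2 -2.56 ± 0.39, edgeR adjusted p = 0.0355), at most 2.08 CPM. KRT14 missed it without resistant replicate 1 (0.0789) and without resistant replicate 2 (0.186). KRT14 has near-identical copies in the genome, and KRT8 and KRT18 have many, so their counts are uncertain.

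The simple-epithelial keratins were the abundant ones. KRT8 had 108 and 149 CPM in resistant cells and 374 and 146 CPM in controls, and KRT18 195 and 333 CPM in resistant cells against 503 and 289 CPM in controls. In both genes the groups overlapped, and control replicate 1 was the high library in each gene. Without control replicate 2 both passed in edgeR (adjusted p = 4.54e-04 for KRT8 and 0.0368 for KRT18). Without control replicate 1 the log2 fold changes were -0.18 for KRT8 and -0.13 for KRT18 (edgeR adjusted p = 0.997 and 0.998), against -1.02 and -0.58 with all 4 libraries. VIM, the gene of vimentin, had 775 and 1223 CPM in resistant cells and 1471 and 1452 CPM in controls (log2 -0.55, edgeR adjusted p = 0.373), and the plakin gene MACF1 454 and 485 CPM in resistant cells against 418 and 463 CPM in controls. The list median was -0.58.

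None of 18 signalling partners of alpha6 beta4 passed in edgeR, with 5 at an unadjusted p below 0.05 and 1 higher and 3 lower in DESeq2, against 13.5% and 4.86% of all genes by these criteria. EGFR, whose product works with alpha6 beta4 in carcinoma cells, had 33.8 and 44.4 CPM in resistant cells, against 90.1 and 63.9 CPM in controls. It missed the threshold (log2 -0.98 ± 0.23, edgeR adjusted p = 0.0982). EGFR passed in DESeq2 (adjusted p = 0.00666) and in edgeR with no filter on low counts (adjusted p = 2.85e-04). Its log2 fold change was -1.20 without control replicate 2 and -0.71 without control replicate 1. ERBB2 had 77.8 and 73.6 CPM in resistant cells and 117 and 96.6 CPM in controls (edgeR adjusted p = 0.256). The adaptor gene SHC1 was level at 416 and 420 CPM in resistant cells and 427 and 435 CPM in controls, and ERBB3 and RAC1 overlapped between groups.

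Of 11 proteases that cut laminin-332 or collagen XVII or their regulators, 1 fell. In edgeR 3 had an unadjusted p below 0.05 and DESeq2 called 3 lower, against 13.5% and 4.86% of all genes. MMP14, the gene of a membrane-bound matrix metalloprotease, had 85.3 and 68.0 CPM in resistant cells, against 161 and 215 CPM in controls (log2 -1.29 ± 0.21, edgeR adjusted p = 0.0415; 0.225 without resistant replicate 2). MMP2, whose proenzyme MMP14 activates, had 291 and 300 CPM in resistant cells and 481 and 733 CPM in controls, and missed the threshold (log2 -1.04 ± 0.23, edgeR adjusted p = 0.0871; 0.00176 in DESeq2). MMP2 passed without control replicate 1 (1.96e-04) and without control replicate 2 (0.0450). FURIN, a proprotein convertase gene, overlapped between groups at 140 and 152 CPM in resistant cells and 145 and 182 CPM in controls. The median of the list was -0.16, and that of the signalling partners was -0.11.

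The remaining lists had no call in edgeR, and their other counts stand against the same 13.5% at an unadjusted p and 4.86% in DESeq2. Of 12 basement membrane and kindlin genes 2 had an unadjusted p below 0.05 in edgeR, FRAS1 and FREM2, and DESeq2 called 2 lower. FRAS1 had 34.8 and 38.1 CPM in resistant cells and 66.0 and 67.5 CPM in controls (log2 -0.87 ± 0.16, edgeR adjusted p = 0.0569). FREM2 had 10.2 and 12.6 CPM in resistant cells and 19.5 and 25.9 CPM in controls (log2 -0.99 ± 0.23, edgeR adjusted p = 0.0967). COL7A1, the gene of the anchoring fibril collagen, had 33.2 and 21.3 CPM in resistant cells and 23.2 and 58.5 CPM in controls (edgeR adjusted p = 0.615). The log2 fold change of COL7A1 was -1.10 without control replicate 1 and 0.23 without control replicate 2. COL4A1, COL4A2 and HSPG2 overlapped between groups, though COL4A1 passed without control replicate 2 (log2 0.83, adjusted p = 0.0260). Of 13 epithelial and mesenchymal transition factors 2 had an unadjusted p below 0.05 and DESeq2 called 0. Of 11 focal adhesion genes 3 had one, and DESeq2 called 1 higher and 1 lower; ZYX, of the zyxin that marks focal adhesions, had 280 and 377 CPM in resistant cells and 211 and 188 CPM in controls (edgeR adjusted p = 0.156; 0.0354 in DESeq2). The adhesion genes TLN1 and PXN had log2 fold changes of -0.20 and -0.14. Of 6 other tetraspanins 5 were tested, with 0 at an unadjusted p below 0.05 and 0 in DESeq2, and CD9, CD63 and CD81 had log2 fold changes of -0.33, -0.08 and -0.30.

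**Figure D4:**
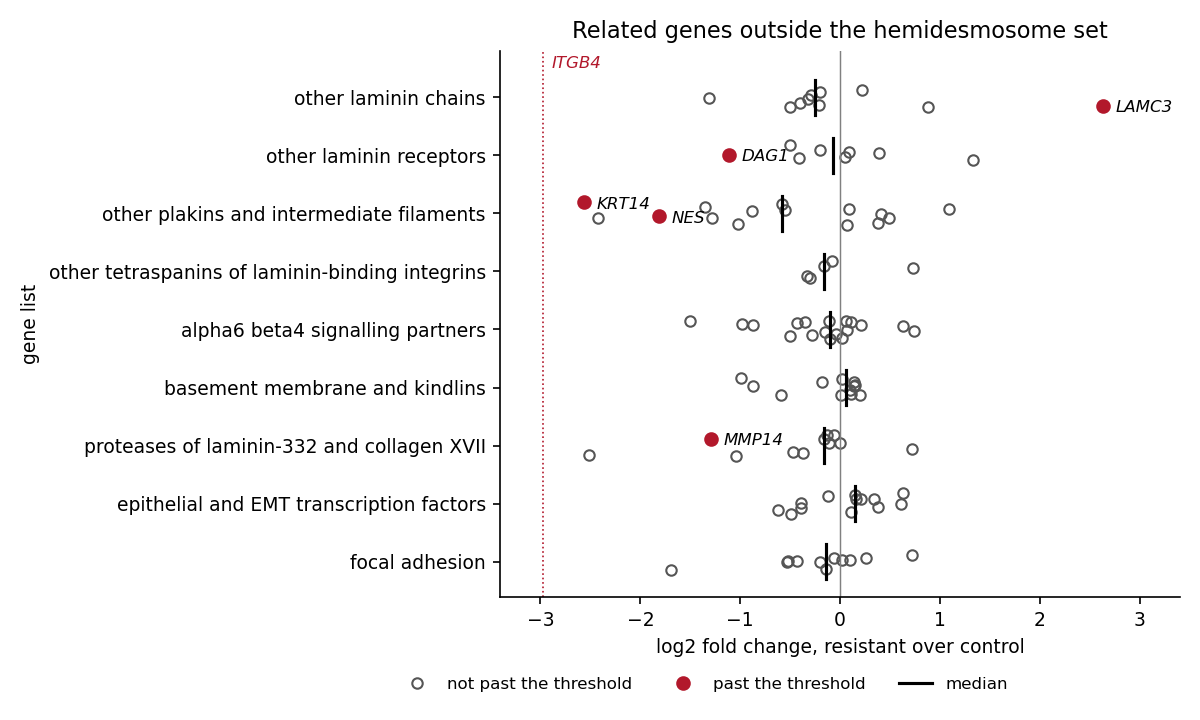
Log2 fold change, resistant over control, of 103 tested genes in 9 related lists, 1 point per gene, with the median of each list as a black bar and genes past the edgeR threshold filled. LAMC3 rose, and DAG1, KRT14, NES and MMP14 fell; the dotted line marks ITGB4 at -2.97, below every point shown.

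The genes with levels most like those of ITGB4 across the 4 libraries were sought among 9949 named genes averaging 10 CPM or more, by the Euclidean distance between centred log2(CPM + 0.5) values. GDA, the guanine deaminase gene, was nearest at a distance of 0.511, with 19.2 and 31.0 CPM in resistant cells and 162 and 163 CPM in controls. ADAMTS6, a metalloprotease gene (0.670), SOX9, a neural crest transcription factor gene (0.680), IL18, a cytokine gene (0.764), and COL13A1, a transmembrane collagen gene (0.825), came next. All 5 share with ITGB4 a lower level in both resistant libraries, with resistant replicate 1 the lowest of the 4. Their log2 fold changes ran from -2.87 for ADAMTS6 to -2.33 for COL13A1, against -2.97 for ITGB4. Of the 5, IL18 alone was not called in edgeR (adjusted p = 0.0544), and its resistant libraries differed 2.62-fold. IL18 passed in DESeq2 (adjusted p = 0.0224). In edgeR it passed with control replicate 1 halved (adjusted p = 0.0442) and with no filter on low counts (3.96e-20). It missed with RLE factors (0.0504) and with a replicate block (0.106). A distance over 4 libraries mainly picks genes with a fold change of like size, and none of the other 7 members was among the 5.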

How the data were processed

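PolyA-selected, strand-specific, paired-end RNA libraries of A375 cells were analysed, 2 per group. The authors deposited whole-number counts for each gene, made with featureCounts 2.0.0 against GENCODE release 42, per the file headers. The submitters' processing notes name STAR, DESeq2 and GRCh38. The featureCounts command in the file headers sets no strand or pair option, so by default counting ignored strand, took mates singly and left out reads of several places or genes. A table of log fold changes that names no comparison was not used here. The file names of the resistant libraries carry other numbers than their labels, and replicate numbers here follow the labels.

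Of 62649 identifiers, 62625 matched a symbol. Genes were filtered with filterByExpr, scaled with TMM and tested with edgeR 4.0.16 (R 4.3.3, limma 3.58.1), group as the sole term, with Benjamini-Hochberg adjustment over 24961 genes and a threshold of 0.05. SE was taken as the size of the log2 fold change over root F. The biological coefficient of variation was 25.5%. Alternatives were DESeq2 1.42.0, RLE factors, no filter, a replicate block, control replicate 1 halved, and each library left out. CPM and TPM were computed from the counts.

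Members and lists were chosen with earlier results of these data known. Named are the 8 members, 10 fixed genes, in each list the genes past the threshold and the 3 most abundant, called genes within 1 Mb of ITGB4, and the 5 genes most like it. SFN, LUM, MITF, DSP, SDC2, KRT7, KRT15, KRT17, FRAS1, FREM2 and the uncalled neighbours of ITGB4 were added after their values were seen. The values of 1 gene that this rule names are not reported here.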

Additional observations from a re-analysis of the deposited data

How the results depend on the processing

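With 1 library left out, the spread comes from the other group together with the genes' shared trend, and the lone library is assumed to vary like that group. Genes called over all genes numbered 272, and 1210 in DESeq2, 1866 with no filter on low counts, 64 with the replicate block and 16 to 2166 with 1 library left out. Calls in the related lists numbered 5, and 19, 25, 1 and 0 to 24 under the same settings. Members called stayed at 1, and ranged from 1 to 2 with 1 library left out. Log2 fold changes of ITGB4 ran from -3.67 to -2.50 over the 9 alternatives, as a description. With control replicate 1 halved, calls numbered 325 over all genes and 7 in the related lists. With RLE factors they numbered 300 and 6. The causes of these shifts were not tested.

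The replicate numbers are not said to mark a shared culture, and deviations of same-numbered libraries correlated at 0.00219 over 10089 genes, so the block is an alternative only. Under the replicate block ITGB4 had -3.09 and NES -1.80 (edgeR adjusted p = 0.0371), while LAMC3 (0.0642), DAG1 (0.0845), KRT14 (0.0912), MMP14 (0.0945), UNC13D (0.101) and COL13A1 (0.0559) missed the threshold.

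Signs turned with 1 library left out in genes that were not called with all 4 libraries, of which COL7A1 passed without control replicate 1 and COL4A1 without control replicate 2. Log2 fold changes ranged from -0.11 to 0.25 for ITGA6, -0.21 to 0.16 for PLEC, -0.32 to 0.12 for CD151, -0.40 to 0.04 for ITGB1, -0.39 to 0.39 for ITGA3, -0.25 to 0.53 for SDC4, -0.13 to 0.39 for ERBB3, -0.09 to 0.13 for RAC1, -0.32 to 0.83 for COL4A1, -0.25 to 0.56 for COL4A2, -0.04 to 0.29 for HSPG2, -0.31 to 0.53 for FOSL1, -1.10 to 0.23 for COL7A1, -0.23 to 0.07 for CD63, -0.31 to 0.01 for FURIN and -0.50 to 0.33 for PXN. Among the genes named by rule, the lowest counts were 22 in a library for KRT14 and 24 for LAMC3.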
